A study of Ambystoma mexicanum with 6 samples.

Results

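The assembled gene c1084331_g1 carries the transcripts of axolotl p53 in the transcriptome to which the authors quantified their reads. Its members were every transcript whose identifier starts with c1084331_g1_i, which gave 5 of 1554055 transcripts in the matrix. They are called i1 to i5 below. The transcript i1 has a blastx name, P53_ICTPU, a p53 protein of a catfish, in the tables of the skin flap experiment of the study. The other members, i5 among them, have no name of their own here. They are called p53 only because they share its assembled gene. Regenerating forelimbs of juvenile white axolotls (Ambystoma mexicanum) had been amputated through the forearm and kept in iMDK, a small molecule inhibitor of the growth factor midkine, or in its solvent DMSO. Per the labels treatment ran from amputation to collection at 11 days post-amputation (dpa), and mRNA was sequenced from 3 limbs per treatment, each of a different animal according to the methods. The gene was selected on the levels and shares of its transcripts in DMSO against iMDK in these same libraries. Its levels and shares are therefore given as a description, without a test.

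p53 is a transcription factor that is held at low protein levels in unstressed cells, mainly by the ubiquitin ligase MDM2 and its partner MDM4. DNA damage and other stresses release it, and it then switches on genes of cell cycle arrest, DNA repair and apoptosis. In mammals the gene makes several isoforms through alternative promoters and splicing, some of which lack the domain that activates transcription. In salamander limbs p53 activity is known to be lowered while the blastema forms. This activity depends largely on the stability of the protein, which RNA levels do not measure.

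The values are TPM, transcript abundances scaled for transcript length and for the library total, multiplied by a library factor that the authors obtained by the trimmed mean of M values (TMM). Read totals cannot be recovered from them, so the depth behind each value is unknown. Between 126965 and 198094 transcripts were above 0 in a library, and log2 values correlated at 0.773 to 0.806 within a group and at 0.733 to 0.770 between groups. The limb tissue held RNA of marker genes of epidermis, of connective tissue and of a joint macrophage and osteoclast list in all 6 libraries. Summed over all their transcripts, these lists were at 9048 to 14812, 903 to 2157 and 4860 to 7594 TPM. The sum of the joint list does not give a macrophage level. Over the 6 libraries its CATK gene CATK_PIG (c1083836_g2) was at 1534 to 3811 TPM and its MPEG1 gene MPEG1_HUMAN at 297 to 2207 TPM. The 3 muscle marker genes, named MYH3, ABRA and LMCD1, summed to 3.78 to 8.79 TPM. With so few genes this sum does not measure how much muscle the limbs held.

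The transcript i1 was higher in every iMDK-treated limb. DMSO 1, 2 and 3 had 7.50, 3.75 and 9.25 TPM of i1, and iMDK 1, 2 and 3 had 33.9, 25.8 and 24.5 TPM. The groups did not overlap, and the lowest iMDK library was 2.64 times the highest DMSO library. The means were 6.83 ± 2.81 TPM in DMSO and 28.1 ± 5.10 TPM in iMDK (SD, n = 3 per group), a ratio of 4.11 and a difference of 2.03 on the scale of log2(TPM + 0.5). Without DMSO 2, the lowest library, this log2 difference was 1.68.

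The transcript i5 made up most of the gene, and its levels overlapped between the groups. DMSO libraries had 87.97, 115 and 109 TPM of i5 and iMDK libraries 109, 103 and 91.9 TPM, so that every iMDK value lay within the DMSO range. Its means were 104 ± 14.1 and 101 ± 8.67 TPM (SD, n = 3 per group), with a log2 difference of -0.03 that ranged from -0.15 without DMSO 1 to 0.04 without DMSO 2. Over the 6 libraries the highest value was 1.30 times the lowest. With a mean at percentile 97.8 of all 51718 transcripts tested, i5 was among the abundant transcripts of these limbs, and i1 stood at percentile 88.8.

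The transcript i3 was, like i1, higher in every iMDK-treated limb, at a much lower level, but within a group the 2 did not rank the libraries alike. DMSO libraries had 0.687, 0.162 and 0.182 TPM of i3 and iMDK libraries 2.90, 1.88 and 5.60 TPM. Its groups did not overlap either, although iMDK 3 was well above the other iMDK libraries for i3 and the lowest of them for i1. Its means were 0.344 ± 0.298 and 3.46 ± 1.92 TPM (SD, n = 3 per group), a log2 difference of 2.18. Among all tested transcripts, 8.59% were higher in iMDK without overlap. As this contrast chose the gene, nothing is read from the 2 members of 5 that were.

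The remaining members were scarce. The transcript i4 reached 2.06 TPM in DMSO 1, was at 0.849 TPM in iMDK 1 and was listed at 0 in the other 4 libraries. The sign of its log2 difference, -0.31, rested on DMSO 1 and was 0.48 without that library. The transcript i2 was at most 0.011 TPM in any library. A listed 0 can be a failed estimate, since kallisto divides reads among transcripts that share sequence. The single transcript of the neighboring assembled gene c1084331_g2 was at 0 in all 6 libraries. In all, 5 of 5 members were above 0 in at least 1 library, 3 in all 6, and 3 (i1, i3 and i5) reached 1 TPM in at least 3 libraries.

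**Figure D1:**
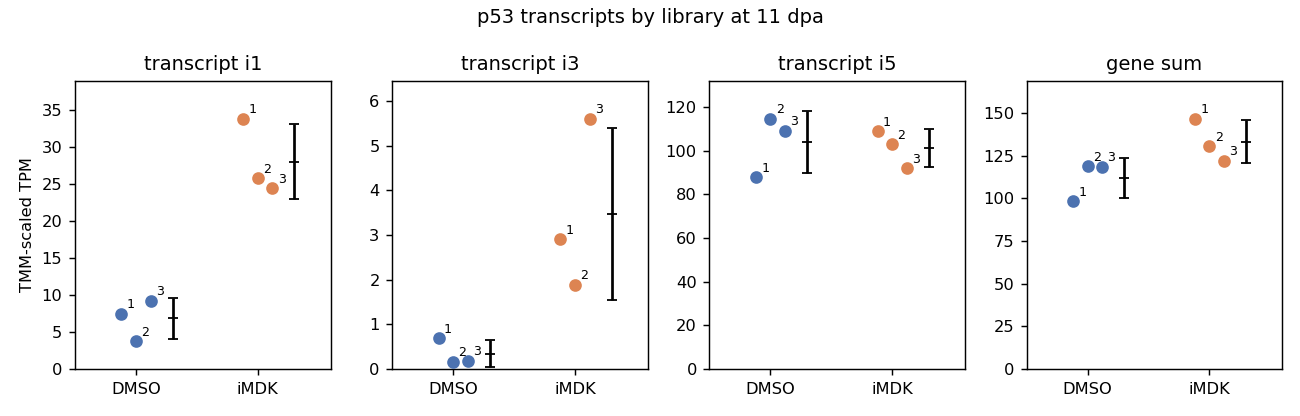
TMM-scaled TPM of transcripts i1, i3 and i5 and of the sum of the assembled gene (vertical axes from 0, each panel with its own scale) in DMSO-treated and iMDK-treated limbs. Points are libraries, numbered as in the labels, and bars give the mean and SD of 3 libraries; i1 is at 3.75 to 9.25 TPM in DMSO and 24.5 to 33.9 TPM in iMDK, while i5 overlaps at 87.97 to 115 TPM.

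Ordered by level, i5 came first and i1 second in every library. The gap between them narrowed from 8.52, 3.26 and 8.48 TPM of i1 per 100 TPM of i5 in DMSO 1, 2 and 3 to 31.1, 25.04 and 26.6 in iMDK 1, 2 and 3. In iMDK i3 came next in all 3 libraries. In DMSO i3 and i4 did not differ beyond their spread, and i4 and i2 did not in either group.

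The sum of the gene differed far less than i1. It was 98.2, 119 and 119 TPM in DMSO against 147, 131 and 122.01 TPM in iMDK, with means of 112 ± 11.8 and 133 ± 12.5 TPM (SD, n = 3 per group). The ratio of the means was 1.19 and the log2 difference 0.25. The lowest iMDK sum exceeded the highest DMSO sum by 3.33 TPM, and 8.38% of all assembled genes were higher in iMDK without overlap. This separation depended on the library scaling, since with the TMM factors undone the sums were 96.7, 130.4 and 120.5 in DMSO and 132.9, 132 and 121 in iMDK and overlapped. The groups of i1 stayed apart with that scaling, at 4.12 to 9.40 and 24.3 to 30.7 TPM, as did those of i3. The log2 difference of the sum was 0.16 without DMSO 1 and also 0.16 with the TMM factors undone.

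The mean of i1 was 21.2 TPM higher in iMDK and that of the gene sum 21.3 TPM higher. All transcripts other than i1 together summed to 90.7, 115 and 109 TPM in DMSO against 113, 104.8 and 97.5 TPM in iMDK. Their means were 104.997 ± 12.7 and 105.06 ± 7.64 TPM (SD, n = 3 per group), a log2 difference of 0.0055. With the TMM factors the added p53 RNA was thus of the size of i1 alone. In these values i3 was higher by 3.12 TPM and i5 lower by a mean of 2.66 TPM, within its spread. This match depended on the library scaling. With the TMM factors undone, the means in DMSO and iMDK were 6.97 and 27.03 for i1 but 115.8 and 128.7 for the sum. Those of i5 were 107.9 and 98.1, with overlap. With median-of-ratios scaling the means were 6.67 and 27.6 for i1 and 108.3 and 131.04 for the sum, a closer match.

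**Figure D2:**
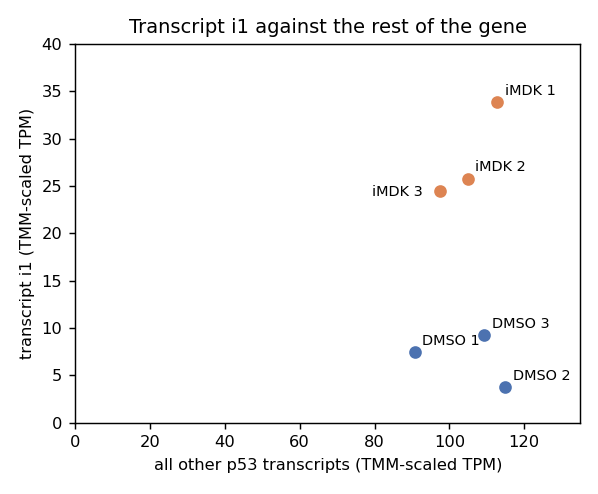
Level of transcript i1 (vertical axis, TMM-scaled TPM) against the summed level of all other transcripts of the gene (horizontal axis, TMM-scaled TPM), with 1 point for each of the 3 DMSO (blue) and 3 iMDK (orange) libraries. The groups separate along the vertical axis and overlap along the horizontal axis, at 90.7 to 115 TPM in DMSO and 97.5 to 113 TPM in iMDK.

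As a share of the gene sum, which does not depend on library scaling, i1 took 7.64, 3.16 and 7.80% in DMSO and 23.1, 19.7 and 20.1% in iMDK. The mean share of i1 was 6.20 ± 2.64% in DMSO and 20.97 ± 1.86% in iMDK (SD, n = 3 per group), 14.8 percentage points higher. The transcript i5 took 89.6, 96.7 and 92.0% in DMSO and 74.3, 78.8 and 75.3% in iMDK. It remained the leading transcript in all 6 libraries, with a mean share lower by 16.6 percentage points. The mean share of i3 was 0.330 ± 0.320% in DMSO and 2.67 ± 1.69% in iMDK. Shares of i1 and i3 were higher without overlap and that of i5 lower, where 8.45% of the 18486 tested transcripts of genes with several such transcripts had a higher and 8.49% a lower share without overlap, 16.9% in all; nothing is read from this, since the contrast chose the gene. Shares sum to 100% in a library, so the lower share of i5 accompanies the higher share of i1, while the levels of i5 overlapped between the groups.

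**Figure D3:**
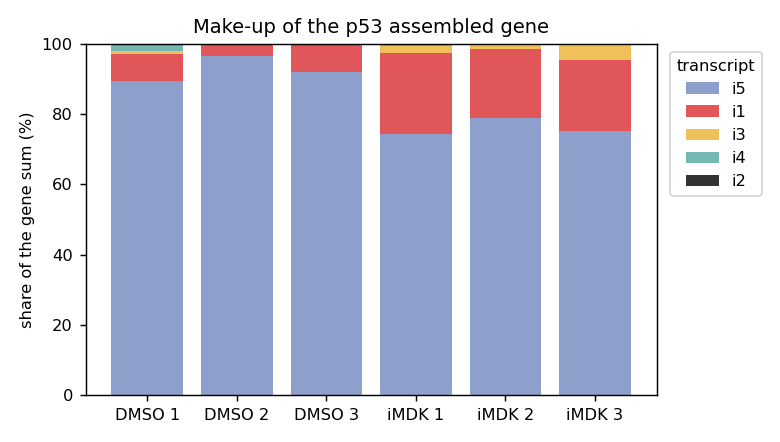
Share of each transcript in the p53 gene sum (vertical axis, percent) in each of the 6 libraries; colors are the transcripts i5, i1, i3, i4 and i2 from the bottom up. The i5 bar covers 89.6 to 96.7% in DMSO and 74.3 to 78.8% in iMDK, and the i1 bar 3.16 to 7.80% and 19.7 to 23.1%.

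Differences in transcript shares were common in these libraries. Of 7599 assembled genes with at least 2 tested transcripts, 25.1% had a transcript whose shares did not overlap between groups, and 23.2% had a different leading transcript by mean in the 2 groups, which p53 did not. A mean share changed by at least the 16.6 points of i5 in 31.8% of 7596 such genes with a share in both groups, and the median of the largest change was 9.81 points. Among the 483 genes whose mean sum was at least that of p53, 9.11% had a change of that size and 34.8% had shares without overlap. This level limit was chosen after the values of p53 were seen.

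p53 is expressed in many cell types, and in whole tissue fewer cells of a type and less RNA per cell cannot be told apart. Marker levels are given here as sums over all transcripts of the marker genes. As a sum, the 6 erythrocyte marker genes separated the libraries as i1 did, at 8.79 to 19.3 TPM in DMSO and 44.2 to 84.9 TPM in iMDK. By gene, HBA2 (HBA2_TRICR), ERMAP (ERMAP_HUMAN) and HEM0 (HEM0_MOUSE) overlapped, with log2 differences of -0.12, -0.01 and 0.95. The other 3 genes were higher without overlap, against 8.38% of all genes. Of these, the globin genes HBB1 (HBB1_TRICR, 1.495 to 2.02 and 15.2 to 28.9 TPM) and HBB2 (HBB2_TRICR, 0.523 to 1.11 and 12.3 to 33.5 TPM) were called higher (limma adjusted p = 0.039 and 0.049), although with any 1 library left out 0 to 3 assembled genes were called at all. The 12 macrophage and osteoclast marker genes, with none at 0 throughout, were also apart as a sum, at 4860 to 5811 and 5934 to 7594 TPM. In every library most of that sum came from genes named CATK and MPEG1, each of which overlapped. A CATK gene (CATK_PIG, c1083836_g2) was at 1534 to 3254 TPM in DMSO and 1825 to 3811 TPM in iMDK. The sum of the 3 endothelium marker genes was narrowly apart, at 14.4 to 21.6 and 21.65 to 33.6 TPM. Most of it was PLVAP (PLVAP_HUMAN), which overlapped, with 20.4 TPM in DMSO 1 and 19.9 TPM in iMDK 2. Both lists overlapped when the named transcripts alone were summed. Among 11 tested macrophage and osteoclast genes, 4 were higher without overlap, against 8.38% of all genes. They were the lysosomal reductase GILT, the tetraspanin CD63 and 2 genes named GRN, a granulin precursor. Of the 11, 0 were called and 3 had an unadjusted limma p under 0.05, against 10.7% of all genes. The remaining genes, named CATK, MPEG1, C1QA, OCSTP and CPVL, overlapped. MPEG1 (MPEG1_HUMAN) was at 297 to 1909 and 450 to 2207 TPM, and C1QA was lower by mean, at 44.6 ± 7.47 and 40.7 ± 5.14 TPM. One transcript of GILT (GILT_BOVIN, c1067192_g2_i1) was called, at 0 to 0.205 TPM in DMSO and 150 to 171 TPM in iMDK (limma adjusted p = 1.1e-04), while the sum of its gene was at 83.6 to 125.4 and 150 to 171 TPM. The 19 epidermis marker genes, 3 of them at 0 throughout, overlapped as a sum, at 9048 to 13458 and 12799 to 14812 TPM. Within that list the transglutaminase TGM1 (8.32, 6.70 and 19.1 against 76.8, 50.9 and 62.2 TPM) and the keratins K2C8 and K1C17 were higher without overlap, against 8.38% of all genes. Of its 14 tested genes, 0 were called and 2 had an unadjusted limma p under 0.05, against 10.7% of all genes. By log2 difference 11 lay above 0 and 3 below, namely K1C24, TGM5 and a K2C5 gene (K2C5_PANTR), at -0.15, -0.04 and -0.02. The 12 connective tissue marker genes overlapped, at 903 to 2157 and 1714 to 1770 TPM. The marker genes named here were picked with their values in view. The part of these cell types in the level of i1 was not tested.

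Some of the genes around p53 were covered by 4 lists, of regulators and partners, target genes, genes of DNA damage, checkpoint and growth arrest, and genes of apoptosis and death receptor signaling, with 56 named transcripts in all. These transcripts are those the study named in its skin flap experiment, and often a minor transcript of their gene. MDM2 is not among them, and targets of p53 without a name there were not looked at. Differences were tested with limma on log2(TPM + 0.5) for transcripts at 1 TPM or more in at least 3 libraries, and a call needed more than a 2-fold difference with a p under 0.05 after Benjamini-Hochberg adjustment. Of the 29 tested, 0 were called, against 0.541% of all tested transcripts (0.311% higher and 0.230% lower, a balance that turned when an iMDK library was left out), and 2 higher and 2 lower had an unadjusted limma p under 0.05, against 11.2% of all. Groups did not overlap for 1 that was higher and 4 that were lower, against 8.59% and 8.41% of all. Their median log2 difference was 0.01, beside -0.02 over all tested transcripts. Summed per assembled gene, 0 of 49 tested genes were called, against 0.0541% of all. Of the 49, 29 lay below 0 and 20 above, with a median log2 difference of -0.12 beside -0.01 for all genes, and 1 higher and 3 lower had an unadjusted limma p under 0.05, against 10.7% of all genes. The DMSO and iMDK sums did not overlap for 12 genes that were lower, against 8.23% of all genes, and for 3 that were higher, against 8.38%.

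Among the regulators, 0 of 7 tested transcripts were called, against 0.541% of all. Of the 7, 1 had an unadjusted limma p under 0.05, against 11.2% of all tested transcripts. NOC2L (NOC2L_BOVIN, c1088527_g2_i2), a repressor that p53 recruits and that inhibits histone acetylation, had this p. Its DMSO libraries were at 15.2, 17.9 and 16.5 TPM and its iMDK libraries at 10.7, 9.48 and 10.9 TPM, which gave -0.65 ± 0.18 (SE) as log2 difference (limma adjusted p = 0.204). The groups did not overlap, nor did the sums of its assembled gene, at 19.5 ± 2.43 and 14.9 ± 0.241 TPM (SD, n = 3 per group). PSME3 (PSME3_CHICK), a proteasome activator that promotes the breakdown of p53 by MDM2, was at 11.1 ± 2.33 and 7.69 ± 2.89 TPM, with overlapping groups (limma adjusted p = 0.644). Its gene sum was at 89.98 ± 17.4 and 63.3 ± 12.4 TPM, also with overlap, a log2 difference of -0.50. It had the only unadjusted limma p under 0.05 among the 12 regulator sums (0.047, adjusted 0.459), against 10.7% of all genes.

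MDM4 (MDM4_BOVIN, c1081080_g1_i1), the partner of MDM2 that blocks the activation domain of p53, was at 0.928 TPM in DMSO 2 and listed at 0 in the other 5 libraries, so that its named transcript was not tested. Its assembled gene, with 7 transcripts, summed to 5.05, 4.91 and 4.66 TPM in DMSO against 4.16, 3.43 and 2.98 TPM in iMDK. These sums did not overlap, and the log2 difference of -0.43 did not pass (limma adjusted p = 0.608). The named transcript of TP53B (TP53B_HUMAN), the p53-binding protein recruited to DNA breaks, had 0, 1.83 and 0 TPM in DMSO against 0, 1.30 and 1.06 TPM in iMDK (limma adjusted p = 0.880), and its gene sum was at 2.06 ± 0.548 and 1.98 ± 0.368 TPM.

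WAP53 (WAP53_MOUSE, c1082821_g1_i3) is WRAP53, a Cajal body protein of the telomerase complex. The transcript had 2.87, 3.76 and 2.15 TPM in DMSO against 1.71, 0 and 2.78 TPM in iMDK (limma adjusted p = 0.677), and its gene sum at 6.40 ± 1.30 and 5.68 ± 1.86 TPM. Neither separated the groups. Other regulators without overlap of their sums were UBP42, a ubiquitin protease that acts on p53, at 5.58 ± 0.286 and 3.66 ± 0.782 TPM, and SMG1, a kinase of RNA decay that can phosphorylate p53, at 3.51 ± 0.159 and 2.55 ± 0.240 TPM (limma adjusted p = 0.474 and 0.673). Both were chosen after their values were seen. Of the 12 regulator sums, 4 were lower and 0 higher without overlap, against 8.23% and 8.38% of all genes.

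Among the target genes of p53, 0 of 5 tested transcripts were called, against 0.541% of all. Of the 5, 1, DRAM1, had an unadjusted limma p under 0.05, against 11.2% of all tested transcripts. DRAM1 (DRAM1_MOUSE, c1078595_g4_i3), a lysosomal membrane protein through which p53 induces autophagy, had 7.55, 5.12 and 0 TPM in DMSO against 40.4, 14.9 and 25.2 TPM in iMDK. The groups did not overlap, and the log2 difference of 3.16 ± 1.04 (SE) did not pass (limma adjusted p = 0.310); it was 1.91 without DMSO 3. The sum of its gene overlapped, at 12.6, 7.77 and 29.6 TPM in DMSO and 40.4, 14.9 and 30.0 TPM in iMDK. In DMSO 3 the named transcript was listed at 0 and the other transcripts of the gene made up its sum.

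AIFM2 (AIFM2_TAEGU), an oxidoreductase first described as a p53-induced mediator of apoptosis, was at 6.38 ± 2.80 and 4.74 ± 1.70 TPM. GA45G (GA45G_RAT), a stress sensor of the GADD45 family, was at 10.6 ± 5.43 and 11.6 ± 2.31 TPM, and the sign of its log2 difference turned from 0.27 to -0.22 without DMSO 2. Both overlapped (limma adjusted p = 0.819 and 0.853). The sums of the 7 listed target genes overlapped without exception, with limma adjusted p-values of 0.686 for DRAM1 to 0.982 for PLK2 (PLK2_RAT), a polo-like kinase, at 82.3 ± 22.05 and 81.2 ± 4.89 TPM (SD, n = 3 per group). Their median log2 difference was 0.02.

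**Figure D4:**
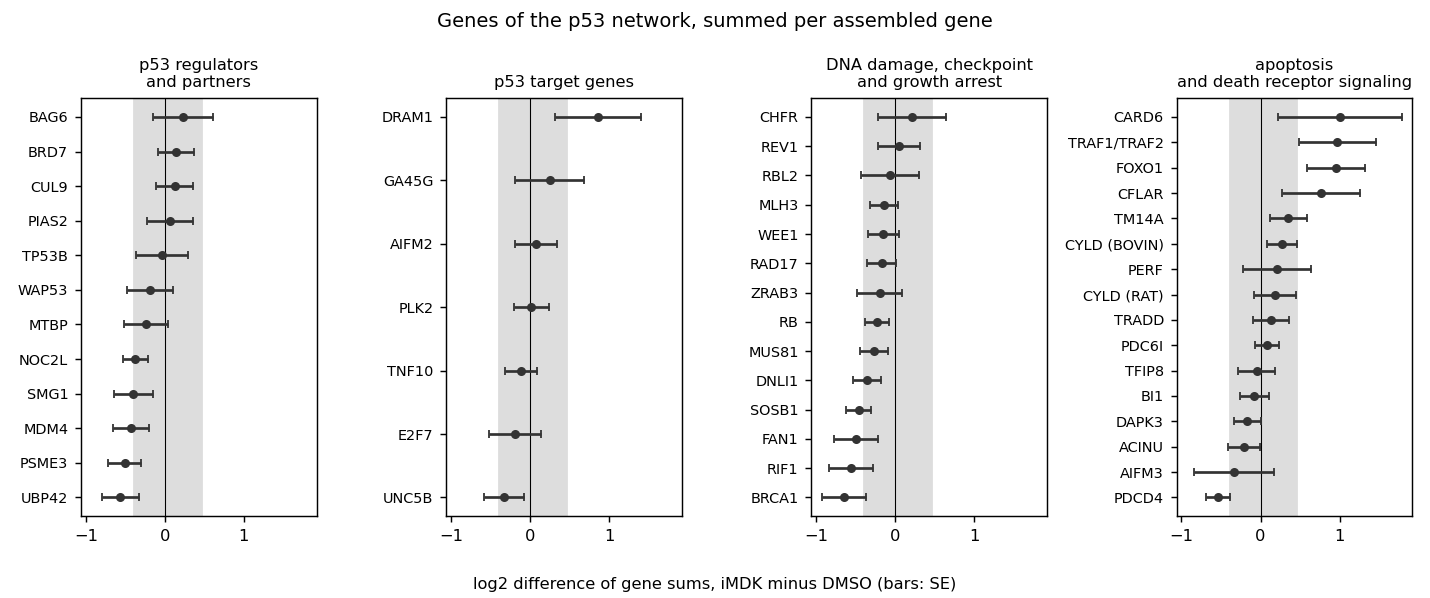
Log2 difference of the summed level of each tested assembled gene, iMDK minus DMSO (horizontal axis; bars are SE from limma, 3 libraries per group), for the 4 lists of genes around p53. The grey band spans the middle of all 44342 tested genes, from -0.39 to 0.47 (quartiles), with a median of -0.01. Of the genes of DNA damage, checkpoint and growth arrest, 12 of 14 lie below 0, and the target genes lie on both sides.

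Genes of DNA damage, checkpoint and growth arrest were mostly lower as sums, with 12 of 14 below 0. Their median log2 difference was -0.21, beside -0.01 for all genes. Of these sums 0 were called and 1, SOSB1, had an unadjusted limma p under 0.05, against 0.0541% and 10.7% of all genes. By transcript 0 of 7 tested were called, against 0.541% of all. Of the 7, 1 higher (CHFR) and 1 lower (SOSB1) had an unadjusted limma p under 0.05, against 11.2% of all tested transcripts. The sums of 7 of the 14 were lower without overlap, against 8.23% of all genes. SOSB1 (SOSB1_HUMAN, c1083298_g6_i4), a single-stranded DNA binding protein of break repair, had 14.03, 15.5 and 10.8 TPM in DMSO against 8.07, 9.59 and 8.84 TPM in iMDK, without overlap (limma adjusted p = 0.381). Its sum was at 16.3 ± 1.59 and 11.7 ± 0.122 TPM (limma adjusted p = 0.358). DNLI1 (DNLI1_MOUSE), the ligase that joins Okazaki fragments, was at 25.9 ± 3.12 and 20.2 ± 2.72 TPM (limma adjusted p = 0.566).

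CHFR (CHFR_MOUSE, c1082890_g2_i3), a ubiquitin ligase of a mitotic checkpoint, went the other way as a transcript, with 0.160, 4.31 and 0.485 TPM in DMSO against 10.5, 4.11 and 6.56 TPM in iMDK (limma adjusted p = 0.332). Its groups overlapped through DMSO 2, and its gene sum was at 15.5 ± 9.11 and 16.98 ± 6.18 TPM. BRCA1 (BRCA1_BOVIN), which acts in homologous recombination, had the most negative log2 difference of the 14 sums, at 5.05 ± 0.589 and 3.10 ± 0.918 TPM (limma adjusted p = 0.478); it was chosen after its values were seen. Many of these genes are also expressed in dividing cells. The 14 marker genes of mitosis and DNA replication summed to 547, 469 and 409 TPM in DMSO against 420, 333 and 289.6 TPM in iMDK, with overlap, and 14 of 14 lay below 0. Their part in the lower DNA damage sums was not tested.

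Among apoptosis and death receptor genes, 0 of 10 tested transcripts were called, against 0.541% of all. Of the 10, 0 had an unadjusted limma p under 0.05, against 11.2% of all tested transcripts. TRAF2 (TRAF2_MOUSE, c1090084_g2_i1), an adaptor of tumor necrosis factor receptors, had the smallest p, at 0.443 ± 0.745 and 2.04 ± 1.42 TPM with overlapping groups (limma adjusted p = 0.50). Its assembled gene also holds a transcript named TRAF1. The sum of this gene was only narrowly apart, at 0.480 to 1.303 TPM in DMSO and 1.311 to 3.62 TPM in iMDK (limma adjusted p = 0.559). TM14A (TM14A_HUMAN), a mitochondrial membrane protein that restrains apoptosis, was at 80.8 ± 29.1 and 103.5 ± 18.5 TPM, and BI1 (BI1_BOVIN, c1086809_g3_i5), Bax inhibitor 1 of the endoplasmic reticulum, at 129 ± 29.2 and 108 ± 20.6 TPM, both with overlap (limma adjusted p = 0.717 and 0.804).

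As a sum, PDCD4 (PDCD4_MOUSE), an inhibitor of translation tied to cell death, reached 97.9, 111 and 100.03 TPM in DMSO against 80.4, 69.2 and 63.2 TPM in iMDK. It did not overlap and had the smallest p of the 49 sums (limma adjusted p = 0.254), whereas its named transcript was at 62.2 ± 26.03 and 61.9 ± 9.10 TPM. FOXO1 (FOXO1_XENTR), a transcription factor of stress and metabolism, had 1.70, 0.701 and 1.24 TPM in DMSO against 3.12, 2.83 and 2.29 TPM in iMDK as a sum, also without overlap (limma adjusted p = 0.416). A CYLD gene (CYLD_BOVIN) was at 6.05 to 6.90 and 7.31 to 9.03 TPM as a sum. PDCD4, FOXO1 and CYLD were chosen after their values were seen. Of the 16 tested sums of this list, 0 were called, against 0.0541% of all genes. Only FOXO1, higher, and PDCD4, lower, had an unadjusted limma p under 0.05 (0.036 and 0.0095), against 10.7% of all genes. Without overlap, 3 sums were higher and 1 was lower, against 8.38% and 8.23% of all genes.

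Among 1266 assembled genes with a name, the sums most like the p53 sum over the 6 libraries were those of ABCG4 (ABCG4_HUMAN), a lipid transporter, with a Pearson r of 0.98 on log2 values, the TRAF2 gene with 0.93 and P4K2A (P4K2A_XENTR), a phosphatidylinositol kinase, with 0.93. ABCG4 had 2.27, 3.33 and 3.56 TPM in DMSO against 5.15, 3.89 and 3.88 TPM in iMDK. The lowest r values were -0.95 and -0.93 for 2 genes named HARB1 and -0.94 for ZN552, a zinc finger protein. For i5, whose groups overlapped, the closest were TAOK2, a kinase, CSKP, a scaffold of cell junctions, and OSBL5, a lipid transfer protein, with r from 0.92 to 0.93, and the most opposed AKAP2, ACSM3 and PX11B, from -0.96 to -0.89. These r values rest on 6 libraries that share their scaling. ABCG4, the TRAF2 gene and P4K2A were, like the p53 sum, higher in iMDK without overlap, against 8.38% of all genes. The contrast of DMSO and iMDK chose the p53 gene, so a high r can come from that group difference alone. The named genes are also the extremes of 1266, and nothing is read from them.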

How the data were processed

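According to the methods and labels of the study, the authors selected mRNA on oligo-dT beads, built Nextera XT libraries, and ran Trimmomatic and then kallisto on a published transcriptome of the axolotl, with no tool versions in the sources used here. Per assembled transcript, the deposited signal holds TPM times a TMM factor of the library. kallisto divides reads among similar transcripts, so single isoforms are less certain than sums, and no count test applied.

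Differences were tested over all transcripts, and over sums per assembled gene, with limma 3.58.1 (mean-variance trend, 2-sided) in R 4.3.3, on log2(TPM + 0.5) for features at 1 or more in at least 3 of 6 libraries; the procedure was tested on simulated data. Plots were drawn in Python 3.11.15 (pandas 2.3.3, matplotlib 3.10.9). Shares are percentages of the gene sum. Alternatives were pseudocounts of 0.1 and 1, no filter, a minimum of 5, TMM undone, median-of-ratios scaling, a replicate block and leaving out each library. The share of i1, the levels per scaling and the marker sums over whole genes were added after seeing the data.

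The members and lists were chosen with earlier results of these data known. The rule named all p53 transcripts, MDM4, TP53B and WAP53, called transcripts, the 3 smallest p per list and the 3 sums most and least like the p53 sum and i5. Names are blastx entries of 1694 transcripts, of which 943 were tested. No transcript sequences were analysed here.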

Additional observations from a re-analysis of the deposited data

How the results depend on the processing

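The higher level of i1, its higher share and the lower share of i5 kept their direction under each alternative run. As their groups did not overlap, leaving out a library or changing the pseudocount could not turn that direction. The contrast also chose the gene, so only the size of the differences is described. The log2 difference of i1 ranged from 1.68 to 2.28 without 1 library, the share of i1 was higher by 13.2 to 15.6 points and that of i5 lower, at -18.2 to -14.6 points. The log2 difference of i3 was 3.06 with a pseudocount of 0.1, as its DMSO values lie near 0. The log2 difference of the gene sum was 0.16 to 0.31 without 1 library, and 0.16 with TMM undone, where the groups overlapped. The 280 calls over all transcripts (161 higher) became 427 with no filter, 168 with a minimum of 5 and 78 to 138 without 1 library. The balance of calls turned with the library left out, with 37 of 90 higher without iMDK 1, 53 of 123 without iMDK 2 and 38 of 78 without iMDK 3, but 73 of 102, 93 of 138 and 81 of 120 without DMSO 1, 2 and 3. The 24 calls over assembled genes became 9 with a pseudocount of 0.1, 438 with no filter, 38 with a minimum of 5, 14 with TMM undone and 0 to 3 without 1 library (0 without iMDK 1, with 4454 at an unadjusted limma p under 0.05). Calls in the p53 lists stayed at 0 under each alternative run, with 1 to 5 transcripts and 1 to 8 sums at an unadjusted limma p under 0.05. Over all assembled genes 2077 to 12342 sums had such a p in these runs. In no run were more than 427 transcripts or 438 assembled genes called over the series, so 0 calls in lists this small say little. Deviations of same-numbered libraries from their group means correlated at r = 0.06, 0.04 and 0.01, beside -0.08 to 0.05 for differently numbered libraries. With 3 libraries per group these values cannot decide whether the numbers pair the limbs. The replicate block gave 30 calls over transcripts and 0 over assembled genes (5018 at an unadjusted limma p under 0.05). With 3 limbs per group and no read totals, small changes of scarce transcripts such as i2 and i4 could not be resolved.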
